A study of Mus musculus with 12 samples.

Results

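The transcripts described here are 6 genes of the imprinted Dlk1-Dio3 cluster on mouse chromosome 12, namely Meg3, Rian, Mirg, Rtl1, Dlk1 and Dio3, among 53801 genes counted. They were chosen by name, after some of them had been seen to stand high in these libraries, so their own differences are given as a description and no test of them is given. RNA was sequenced from dendritic cells (DCs) sorted from mouse gut as CD103+CD11b- or CD103-CD11b+ cells, within a gate for CD45+CD64-CD11c+MHC-II+ cells. The WT groups came from wild type mice, and the Cbfb-cKO groups from CbfbF/F:CD11c-Cre mice, in which a Cre driven by the CD11c promoter deletes floxed Cbfb, the partner subunit of the Runx transcription factors. All mice were of mixed background. Gut DCs of this line were analysed at 7 wk of age, and the labels of these libraries give none. CD11c-Cre is also active to some extent in gut CD4+ T cells. Each of the 4 groups had 3 libraries from 3 different mice, and whether the subsets of a genotype came from the same mice is not stated.

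Genomic imprinting marks a gene copy by the parent that passed it on. In the Dlk1-Dio3 cluster the maternal chromosome carries the active long non-coding RNAs Meg3, Rian and Mirg, which follow each other on the plus strand and host C/D snoRNAs and miRNAs, while the paternal chromosome carries the protein-coding genes Dlk1, Rtl1 and Dio3. A differentially methylated region between Dlk1 and Meg3 controls both sets. Meg3 is known from brain, pituitary, embryo and haematopoietic stem cells, and Dlk1 encodes a membrane protein related to the Notch ligands.

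On GRCm38 the 6 genes spread over chromosome 12 in the order Dlk1 (109452823-109463336, plus strand), Meg3 (109541001-109571726, plus), Rtl1 (109589193-109600330, minus), Rian (109603940-109661716, plus), Mirg (109729764-109749460, plus) and Dio3 (110279068-110281097, plus). The annotation places 118 genes from the start of Dlk1 to the end of Dio3, most of them miRNA and snoRNA genes. Counting ignored strand, so reads from Rtl1 and from the antisense RNA that runs through it on the plus strand cannot be told apart. The 7 miRNA genes that lie within Rtl1 share 534 bp with it, 8.40% of its merged exons, and by default the counter leaves reads there unassigned. All 7 miRNA genes had 0 counts in the 12 libraries, which is what this counting gives whether or not the hairpins are made. Mature sequences of 5 hairpins that are transcribed opposite to Rtl1, and are known to pair with its mRNA, are printed from RefSeq (GRCm38.p6) to show what lies there, with the seed (bases 2 to 8) in capitals; their seeds all differ. Positions on chromosome 12, plus strand, run from 109590459 for the first base of miR-431-5p to 109595352 for the last base of miR-136-5p.
miR-431-5p: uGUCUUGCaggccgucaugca
miR-433-3p: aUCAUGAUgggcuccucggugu
miR-127-3p: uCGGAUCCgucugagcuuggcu
miR-434-3p: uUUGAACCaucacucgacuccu
miR-136-5p: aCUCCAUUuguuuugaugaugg

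RefSeq promoters, 250 bases before and 50 bases after a gene's start, were found for 5 of the 6 genes. Meg3 had the most counts of the members over all libraries together. Its upstream promoter is shown for this reason and because the deleted gene encodes the partner of Runx proteins. It spans chr12:109540746-109541045 on the plus strand of GRCm38.p6, with matches to TGTGGT or TGCGGT (core sequences bound by Runx, searched on both strands) and to TGACGTCA (the cAMP response element, which reads alike on both strands) in capitals.
Meg3 promoter: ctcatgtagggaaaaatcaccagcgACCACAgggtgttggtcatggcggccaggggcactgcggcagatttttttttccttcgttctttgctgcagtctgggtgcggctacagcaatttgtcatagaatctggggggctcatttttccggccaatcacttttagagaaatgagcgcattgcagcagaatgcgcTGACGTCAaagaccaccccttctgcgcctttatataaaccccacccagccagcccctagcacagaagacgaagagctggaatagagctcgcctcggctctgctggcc
The TGTGGT match lay on the minus strand, 225 bases before the start, and the TGACGTCA match 57 bases before it. Of all 32851 RefSeq promoters of this length, 22.4% held TGTGGT or TGCGGT and 1.79% held TGACGTCA. Of the other promoters of the members, that of Dlk1 held TGTGGT, and those of Rian, Mirg, Dio3 and the downstream start of Meg3 held none of these letters. Such matches describe the sequence and do not show binding. The window of Mirg (109734731-109735030) lies within the Mirg gene as placed above, so the stretch before that gene's start was not searched.

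Libraries held 2161929 to 5863484 counts on genes. Levels are in CPM, the usual unit of counts scaled to a common library size, here after TMM correction, and 3 counts, the floor used here, corresponded to 0.485 to 1.53 CPM in a library. Intervals from counts cover counting error only. Cbfb over its whole length did not separate the genotypes, at 214 ± 14.8 CPM in WT and 242 ± 41.9 CPM in Cbfb-cKO CD103+CD11b- DCs (SD, n = 3 each) and 188 ± 28.2 and 207 ± 56.9 CPM in CD103-CD11b+ DCs, so it checks no label. Markers of DCs were present in every library, and no library had any of the 6 DC markers at 0. Itgae, which encodes CD103, and Itgam, which encodes CD11b, each separated the subsets in both genotypes without overlap.

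Meg3, the long non-coding RNA at the head of the maternal transcripts, was close to absent from WT CD103+CD11b- DCs. Its levels there were 0, 0.229 and 1.29 CPM. In WT CD103-CD11b+ DCs they were 3.13, 6.66 and 1.16 CPM, so the WT subsets overlapped. In Cbfb-cKO CD103+CD11b- DCs Meg3 reached 13.1, 17.1 and 9.39 CPM, each above all 6 WT libraries. The highest levels, 42.4, 129 and 81.1 CPM, were in Cbfb-cKO CD103-CD11b+ DCs, again with no overlap with another group. Mean Meg3 was thus 26.0-fold higher in Cbfb-cKO than in WT CD103+CD11b- DCs and 23.1-fold higher in CD103-CD11b+ DCs, with fitted log2 fold changes of 4.34 ± 0.88 and 4.55 ± 0.62 (SE). Most of the 9 Meg3 counts of the WT CD103+CD11b- group came from replicate 3, and leaving it out moved the fitted log2 value to 6.30. In CD103-CD11b+ DCs the value was 5.21 without replicate 2 of the WT.

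Rian, the next RNA downstream and the host of many C/D snoRNAs, followed the same order of groups. WT CD103+CD11b- libraries held 0.684, 0.915 and 1.78 CPM, and WT CD103-CD11b+ libraries 1.57, 3.0 and 4.36 CPM. Cbfb-cKO CD103+CD11b- DCs had 9.99, 11 and 7.04 CPM, and Cbfb-cKO CD103-CD11b+ DCs had 35.5, 93.5 and 79.0 CPM. Each Cbfb-cKO library lay above every WT library. The fold of the means between genotypes was 8.29 in CD103+CD11b- DCs (log2 2.93 ± 0.52, SE) and 23.3 in CD103-CD11b+ DCs (log2 4.56 ± 0.45). Without replicate 3 of the WT CD103+CD11b- DCs the first of these log2 values was 3.47.

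**Figure D1:**
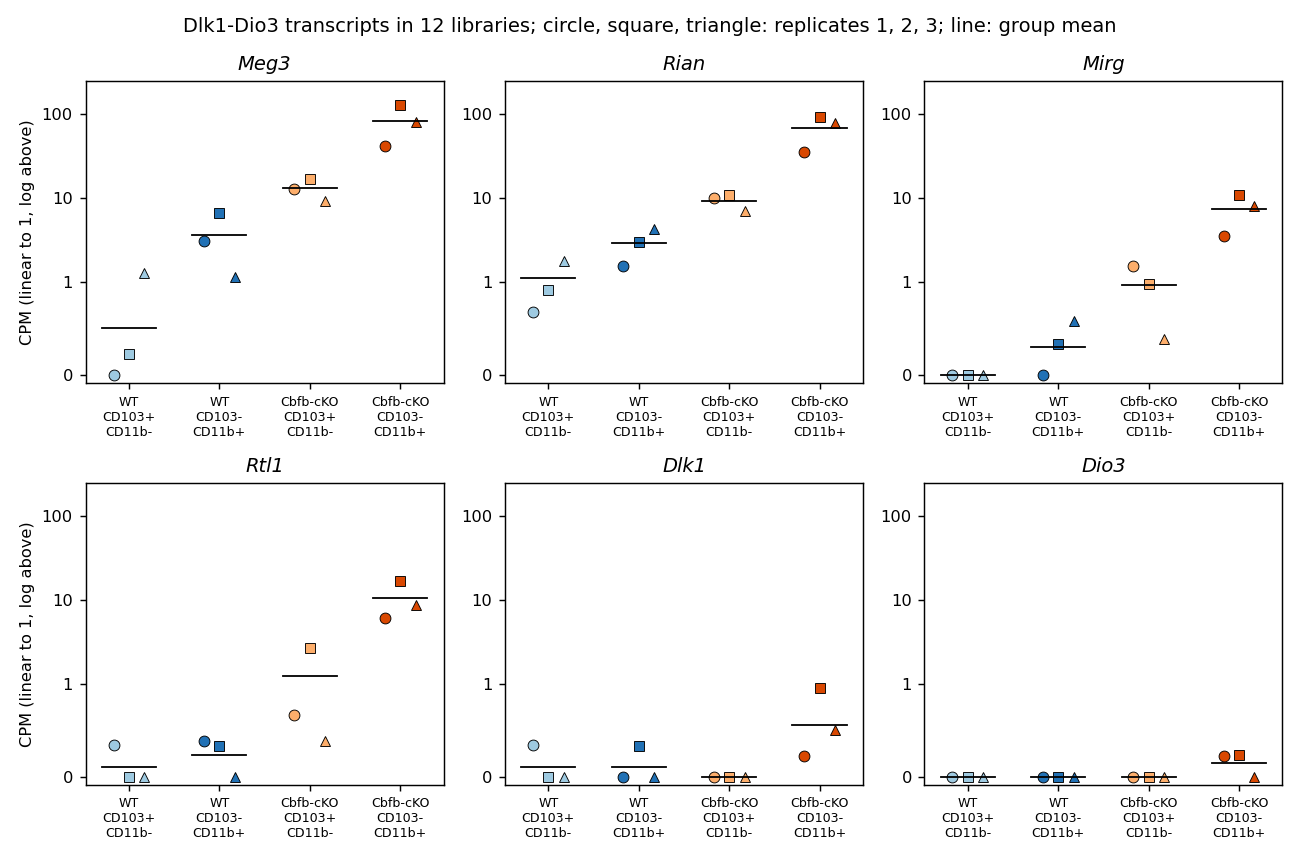
Level of each of the 6 genes in every library as CPM (vertical axis, linear up to 1 and logarithmic above), by group on the horizontal axis, with replicates 1, 2 and 3 as circle, square and triangle and group means as lines. Meg3 and Rian in the Cbfb-cKO libraries sit above all WT libraries, Mirg and Rtl1 are near 0 in WT, and Dlk1 and Dio3 stay below 1 CPM throughout.

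Mirg, the miRNA host at the distal end of the maternal transcripts, was the least abundant of the non-coding RNAs. It had no count in the 3 WT CD103+CD11b- libraries and 0, 0.333 and 0.582 CPM in WT CD103-CD11b+ DCs. Cbfb-cKO CD103+CD11b- DCs held 1.55, 0.976 and 0.391 CPM, of which the last is a single count. In Cbfb-cKO CD103-CD11b+ DCs the levels were 3.59, 10.9 and 8.16 CPM, above all other libraries. Against the floor of 3 counts over the WT group, Mirg was at least 4.37-fold higher in Cbfb-cKO CD103+CD11b- DCs. In CD103-CD11b+ DCs, 78 counts in Cbfb-cKO stood against 3 in WT, a ratio of 28.3 per sequenced depth with a 95% exact counting interval of 9.33 to 140. The fitted log2 fold change of 4.63 there became 3.95 without replicate 1 and 5.56 without replicate 3 of the WT.

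Rtl1 encodes a retrotransposon-derived protein needed in placenta and muscle, but its counts may hold antisense RNA as well. WT libraries held 0.342, 0 and 0 CPM in CD103+CD11b- and 0.392, 0.333 and 0 CPM in CD103-CD11b+ DCs. Cbfb-cKO CD103+CD11b- DCs had 0.666, 2.68 and 0.391 CPM, and the lowest of these, a single count, is at the level of single counts in WT. The Cbfb-cKO CD103-CD11b+ libraries had 6.06, 16.9 and 8.67 CPM. Here 115 counts stood against 3 in WT, a ratio of 41.7 with a 95% exact counting interval of 13.9 to 205. In CD103+CD11b- DCs the 15 Cbfb-cKO counts against 1 gave a ratio of 18.1, with an interval of 2.79 to 763 that shows how little these counts fix. Replicate 2 held 11 of the 15, and without it the fitted log2 fold change was 2.40 in place of 3.59, whereas without replicate 1 of the WT no WT count was left. In CD103-CD11b+ DCs the fitted value of 5.21 became 5.82 without replicate 1 of the WT.

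Dlk1 and Dio3, protein-coding genes at the ends of the cluster, were barely counted. Dlk1 had 8 counts in all, of which 6 fell in Cbfb-cKO CD103-CD11b+ DCs, at 0.224, 0.952 and 0.510 CPM. The other groups had 1, 1 and 0 counts of Dlk1. The ratio of Cbfb-cKO to WT CD103-CD11b+ DCs was 6.53, from 6 counts against 1. Its 95% exact counting interval of 0.792 to 300.2 shows how little these counts fix. Dio3, the deiodinase that inactivates thyroid hormone, had 2 counts, in replicates 1 and 2 of the Cbfb-cKO CD103-CD11b+ DCs. A count of 0 over a group allowed up to 0.223 to 0.269 CPM in the 3 other groups, so low levels of Dio3 were not detectable at this depth. Neither gene reached 5 counts in any library, so neither entered the fit.

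The filter on low counts kept 20580 genes that reached 5 counts in some library, among them 4 of the 6 members. Mirg and Rtl1 passed it through Cbfb-cKO libraries alone, whereas Meg3 and Rian also reached 5 counts in WT libraries. For all 4 the Cbfb-cKO libraries lay above the WT libraries of the same subset, as 7.51% of all genes tested did in CD103+CD11b- and 9.75% in CD103-CD11b+ DCs. The members were picked for standing high, and nothing is read from these counts. For the other genes described below, a call means edgeR's quasi-likelihood test at a false discovery rate (FDR, Benjamini-Hochberg over all genes tested) under 0.05 and a fold change over 1.3.

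Between the subsets in Cbfb-cKO, the CD103-CD11b+ libraries lay above the CD103+CD11b- libraries for these 4 members, as they did for 18.4% of all genes tested, and nothing is read from this count either. The mean was 6.39-fold higher for Meg3, 7.43-fold for Rian, 7.77-fold for Mirg and 8.45-fold for Rtl1. Without replicate 2 of the Cbfb-cKO CD103-CD11b+ DCs, the library with the most Meg3, the log2 difference of Meg3 was 2.21 in place of 2.66. Without replicate 2 of the Cbfb-cKO CD103+CD11b- DCs that of Rtl1 was 4.18 in place of 3.0. In WT, mean Meg3 was 7.20-fold and mean Rian 2.64-fold higher in CD103-CD11b+ DCs, but the libraries overlapped. The mean of Meg3 in WT CD103-CD11b+ DCs leaned on replicate 2, and the log2 difference was 1.76 without it, 2.45 with all libraries and 4.35 without replicate 3 of the WT CD103+CD11b- DCs. The fitted differences of the genotype effect between the subsets were 0.21 ± 1.08 for Meg3 and 1.63 ± 0.69 for Rian on the log2 scale (SE). The value of Meg3 was -1.73 without replicate 3 of the WT CD103+CD11b- DCs, -0.19 without replicate 3 of the WT and -0.26 without replicate 2 of the Cbfb-cKO CD103-CD11b+ DCs, so it has no settled sign. The subset comparisons share their libraries with the genotype comparisons and add no independent samples.

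Summed over Meg3, Rian and Mirg, the locus stood at 0.684, 1.14 and 3.07 CPM in WT CD103+CD11b-, 4.70, 9.99 and 6.11 CPM in WT CD103-CD11b+, 24.6, 29.0 and 16.8 CPM in Cbfb-cKO CD103+CD11b- and 81.5, 234 and 168 CPM in Cbfb-cKO CD103-CD11b+ DCs. No library of a group overlapped with the next group in this order. The means rose 14.4-fold with genotype in CD103+CD11b- DCs and 23.2-fold in CD103-CD11b+ DCs. The first of these leaned on replicate 3 of the WT CD103+CD11b- DCs and was 25.7-fold without it, while leaving out 1 library gave 18.0-fold to 29.8-fold for the second, so the folds do not set the subsets apart. Without Meg3, the sum of Rian and Mirg gave 9.16-fold and 23.4-fold, and the WT subsets then overlapped. In these bulk samples, fewer cells that hold the RNA and less RNA per cell cannot be told apart.

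In the Cbfb-cKO libraries Rian counts were 76.3%, 64.3% and 75.0% of Meg3 counts for CD103+CD11b- and 83.6%, 72.4% and 97.5% for CD103-CD11b+ DCs. Pooled, they were 70.6% (95% exact interval 54.7 to 90.9) and 79.2% (71.7 to 87.6), and these intervals overlap. In WT CD103-CD11b+ DCs the pooled share was 80.0% (48.6 to 131), from 32 and 40 counts, but its libraries ran from 45% to 375%. WT CD103+CD11b- DCs had more counts of Rian, 17, than of Meg3, 9, a share of 189% with an interval of 79.6 to 481. On far fewer counts, Mirg was 11.9%, 5.71% and 4.17% of Meg3 in the Cbfb-cKO CD103+CD11b- libraries and 8.47%, 8.47% and 10.1% in the Cbfb-cKO CD103-CD11b+ libraries. Rtl1 was 5.08%, 15.7% and 4.17% of Meg3 in the former and 14.3%, 13.1% and 10.7% in the latter. Both spread more widely in the CD103+CD11b- libraries, where they had 1 to 11 counts each.

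Per length, as CPM per kb of merged exons, Meg3 at 4.66 ± 2.40 and Rian at 3.80 ± 1.66 (SD, n = 3) led in Cbfb-cKO CD103-CD11b+ DCs, and their difference was within the spread. Rtl1 at 1.66 ± 0.889 and Mirg at 1.04 ± 0.509 followed, and the mean of Mirg lay within the SD of Rtl1 while that of Rtl1 lay above the mean plus SD of Mirg. Dlk1 at 0.0994 and Dio3 at 0.0759 CPM per kb came last. When the longest annotated transcript was taken as the length, Rian at 8.57 stood above Meg3 at 5.79 and Mirg at 1.98 above Rtl1 at 1.66 CPM per kb, so the order within each of these pairs depends on the gene model.

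Other annotated genes of the interval were examined to see how far along the chromosome the pattern reached. Of 112 genes that are not members, 8 passed the filter on low counts, 6 of them through Cbfb-cKO libraries alone, so no count of calls over the 8 is given and no test for those 6. Gm37899, a provisional single-exon gene model between Rian and Mirg (109668869-109677585), had no count in WT CD103+CD11b- DCs and 0.392, 1.67 and 0 CPM in WT CD103-CD11b+ DCs. It stood at 0.666, 3.66 and 1.17 CPM in Cbfb-cKO CD103+CD11b- and 8.53, 15.9 and 17.3 CPM in Cbfb-cKO CD103-CD11b+ DCs. Between genotypes its log2 difference in the CD103-CD11b+ subset was 4.37 ± 0.95 (SE; edgeR's quasi-likelihood test, adjusted p = 0.0567), which missed the limit, and it was called for the subsets in Cbfb-cKO (2.88 ± 0.82, adjusted p = 0.0462 from edgeR, called under 12 of 19 alternatives). The non-coding B830012L14Rik (109695586-109702587), which lies between Gm37899 and Mirg, had 1 count over the 6 WT libraries together. In Cbfb-cKO it had 15 counts in CD103+CD11b- and 74 counts in CD103-CD11b+ DCs, and it is 1 of the 6.

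The remaining named genes of the interval held few counts. Gm26945, which lies within the span of Rian, had 26 counts in Cbfb-cKO CD103-CD11b+ DCs and none in the WT libraries of that subset, at least 9.23-fold higher against the floor. Gm34081, on the minus strand between Dlk1 and Meg3, had 0, 1, 3 and 20 counts in WT CD103+CD11b-, WT CD103-CD11b+, Cbfb-cKO CD103+CD11b- and Cbfb-cKO CD103-CD11b+ DCs, and Gm27528, 10.1 kb before Meg3, had 0, 0, 2 and 6. Of the snoRNA genes, Gm24564 had 12 counts, Gm23600 had 7 and Gm22205 had 4 in Cbfb-cKO CD103-CD11b+ DCs, against 1, 0 and 0 in WT. Dio3os, the divergent neighbour of Dio3, had 2 counts in each genotype of CD103-CD11b+ DCs and none in CD103+CD11b- DCs. The processed pseudogene Gm3379, between Mirg and Dio3, had 10, 6, 5 and 8 counts in the same order of groups and log2 fold changes of -0.62 ± 0.72 and 0.53 ± 0.72 between genotypes (SE). Over the 67 annotated miRNA genes, of which 24 had any count, the same groups summed to 1, 1, 5 and 37 counts, and over 23 snoRNA genes to 0, 2, 2 and 29. None of the miRNA genes had enough counts to be tested, and counts on a hairpin from long fragments measure the host RNA, not the mature miRNA.

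**Figure D2:**
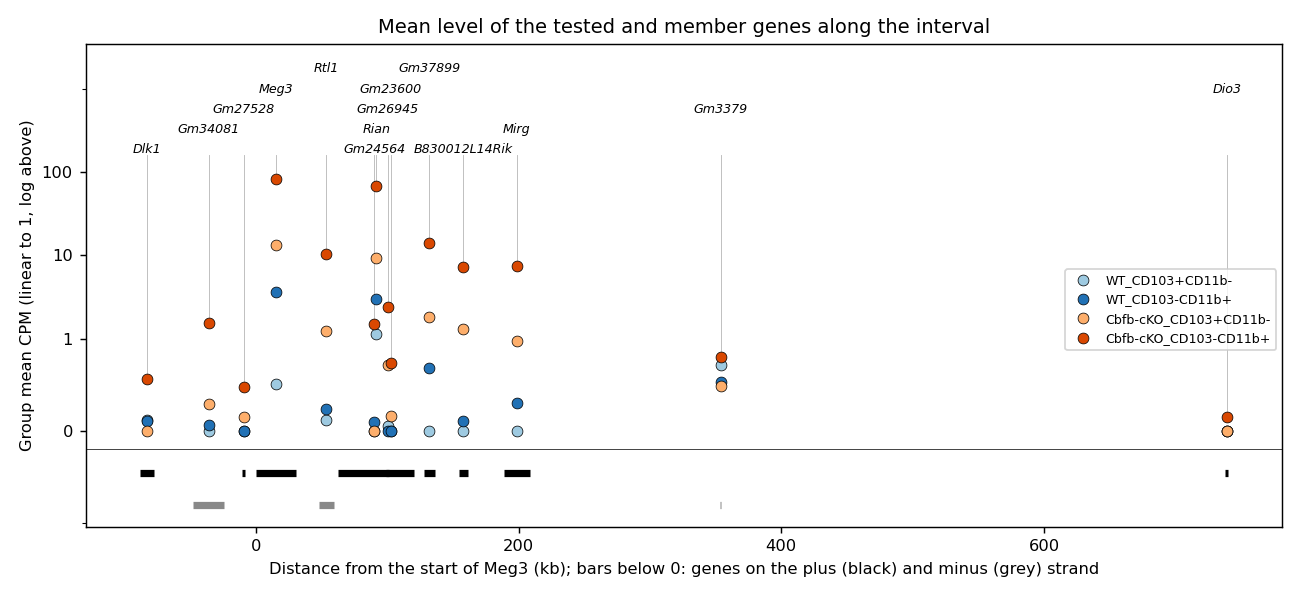
Group mean CPM (vertical axis, linear up to 1 and logarithmic above) of the members and the tested genes of the interval against distance from the start of Meg3 in kb, with gene spans drawn below 0 (plus strand black, minus strand grey). Cbfb-cKO CD103-CD11b+ DCs have the highest mean for each plotted gene from Dlk1 to Mirg, while the 4 groups lie together at Gm3379. Most of the plotted genes other than members passed the filter on low counts through Cbfb-cKO libraries alone, which favours this order.

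Genes on either side of the interval were read for comparison. Begain, the nearest listed gene on the Dlk1 side at 385 kb, was below 1 CPM in all group means, with log2 fold changes between genotypes of 0.36 ± 1.88 and 0.44 ± 1.36 (SE). Ppp2r5c, a phosphatase subunit 166 kb beyond Dio3, stood at 271 ± 8.71 and 267 ± 35.1 CPM in WT and Cbfb-cKO CD103+CD11b- DCs and at 253 ± 8.76 and 252 ± 24.4 CPM in CD103-CD11b+ DCs (SD, n = 3 each). Between genotypes edgeR called 1.02% of all genes tested in the CD103+CD11b- subset and 1.61% in the CD103-CD11b+ subset, DESeq2 called 3.18% and 5.52%, and 10.5% and 17.4% had an unadjusted p under 0.05 by edgeR. Of 17 flanking genes, all tested, edgeR called none in the former subset, DESeq2 called 1, and 2 had an unadjusted p under 0.05. In the latter these counts were 1, 3 and 6. The gene called by edgeR was Evl, an actin regulator 764 kb before Dlk1, which rose from 81.3 ± 6.91 to 114 ± 4.17 CPM (log2 0.49 ± 0.11, SE, adjusted p = 0.0486 from edgeR, called under 5 of 19 alternatives and under none that left out a library other than replicate 3 of the WT CD103+CD11b- DCs). The median log2 fold change of the flanking genes was 0.09 and -0.08 in the subsets, against -0.02 and -0.06 over all genes tested.

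Imprinted genes of other chromosomes were compared as a group that shares the mode of regulation. Of 46 such genes 38 were tested. Of all genes tested 0.224% and 1.11% were called higher in Cbfb-cKO in these subsets. Of the list 1 was called higher in CD103+CD11b- DCs, Ppp1r9a, a neuronal actin-binding protein near Peg10, which rose from 15.3 ± 1.33 to 42.7 ± 11.7 CPM (log2 1.49 ± 0.28, SE, adjusted p = 0.0379, edgeR). In CD103-CD11b+ DCs 1 was called higher, Impact, a regulator of translation under stress, which rose from 101 ± 29.0 to 249 ± 106 CPM (log2 1.29 ± 0.28, SE, adjusted p = 0.0471, edgeR). The call of Ppp1r9a held under 13 of 19 alternatives and was lost without any 1 of the 3 WT libraries, without replicate 1 or 2 of the Cbfb-cKO libraries of that subset and without replicate 1 of the Cbfb-cKO CD103-CD11b+ DCs. That of Impact held under 7 and, among the fits that left out a library, only without replicate 3 of the WT or replicate 1 of the Cbfb-cKO CD103-CD11b+ DCs. The medians of the list were -0.15 and -0.52 in the subsets, against -0.02 and -0.06 over all genes tested.

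More genes of the same list were called between subsets than between genotypes, as was so for all genes tested. In WT, 12 of the 38 were called, 9 of them higher in CD103-CD11b+ DCs, where 18.8% of all genes tested were called and 11.8% were higher. Among the higher were Grb10, an adaptor that restrains insulin signalling (13.7-fold, log2 3.67 ± 0.86, adjusted p = 0.0201), Peg13, a non-coding RNA (2.30-fold, log2 1.20 ± 0.29, adjusted p = 0.0181) and Sfmbt2, a Polycomb group protein (3.67-fold, log2 1.82 ± 0.46, adjusted p = 0.0208), all from edgeR. Without replicate 2 of the WT CD103-CD11b+ DCs all 3 lost their calls, and the log2 value was 2.84 for Grb10, 0.74 for Peg13 and 1.77 for Sfmbt2. That of Grb10 was 5.31 without replicate 3 of the WT CD103+CD11b- DCs. They were also lost without replicate 1 of the WT CD103+CD11b- DCs, Grb10 and Peg13 without its replicate 2, and Sfmbt2 without its replicate 3 or without replicate 1 of the WT CD103-CD11b+ DCs. Lower were Ube3a, a ubiquitin ligase, Slc22a18, a transporter, and Copg2, a coatomer subunit. In Cbfb-cKO 12 were called, 6 of them higher, where 16.1% of all genes tested were called and 9.26% were higher. Slc22a18 differed most among the lower ones named, with a log2 value of -3.09 ± 0.34, and Igf2r, the receptor that clears IGF2, stood at -2.02 ± 0.39. Sfmbt2 at 2.95 ± 0.47 and Rasgrf1, a guanine nucleotide exchange factor, at 3.06 ± 0.67 (SE) were higher in CD103-CD11b+ DCs. The value of Rasgrf1 ran from 2.68 to 4.12 under the alternatives. The summed level of 9 markers of fibroblasts and other stroma ran from 26.8 to 620 CPM in WT CD103+CD11b- and from 617 to 1782 CPM in WT CD103-CD11b+ DCs, and the part of such cells in these imprinted genes was not tested.

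Regulators of the locus and of imprints gave no call between genotypes by edgeR among 21 tested of 23 listed. In CD103+CD11b- DCs DESeq2 called 0 and 2 had an unadjusted p under 0.05 by edgeR, and in CD103-CD11b+ DCs these counts were 1 and 6, where 3.18% and 10.5% of all genes tested were so found in the former and 5.52% and 17.4% in the latter subset. Zfp57, a zinc finger protein that protects methylation at imprinting control regions, had log2 fold changes of -0.21 ± 0.49 and -1.25 ± 0.53 in these subsets (SE). The maintenance methyltransferase Dnmt1 stood at 0.30 ± 0.14 and -0.13 ± 0.14, and its targeting factor Uhrf1 at 0.17 ± 0.27 and 0.09 ± 0.26. The de novo methyltransferase Dnmt3a was at -0.01 ± 0.18 and 0.42 ± 0.18, and Tet2, which oxidises methylated cytosine, at -0.29 ± 0.14 and 0.41 ± 0.14. The medians of the list, 0.04 and 0.09, lay close to those of all genes, -0.02 and -0.06. Between the subsets in WT 4 of the 21 were called, where 18.8% of all genes tested were. Dnmt1 (log2 0.86 ± 0.14), Uhrf1 (1.18 ± 0.26) and Tet1 (1.32 ± 0.40) were higher in CD103-CD11b+ DCs and the histone demethylase Kdm1b (-0.79 ± 0.20, SE) was lower. The call of Dnmt1 held under all 20 alternatives and that of Tet1 under 9, and without replicate 1 or 2 of the WT CD103+CD11b- DCs 1 gene was called, and without replicate 2 or 3 of the WT CD103-CD11b+ DCs 2 were. In Cbfb-cKO 6 were called, 4 of them higher and 2 lower in CD103-CD11b+ DCs, where 16.1% of all genes tested were called. Higher were Tet2 (log2 0.69 ± 0.14, called under all 20 alternatives), Uhrf1 (1.10 ± 0.26), Dnmt3a (0.70 ± 0.18) and Tet1 (1.47 ± 0.42), and lower were the histone chaperone Daxx (-0.38 ± 0.11, SE) and Zfp57. Of these 6, 1 or 2 were called without replicate 1, 2 or 3 of the CD103+CD11b- or replicate 1 of the CD103-CD11b+ libraries, and without replicate 2 of the latter Dnmt3a, Tet1 and Daxx lost their calls. The call of Daxx was also lost without replicate 3 of that group. Zfp57 stood at 5.07 ± 2.85 CPM in CD103-CD11b+ against 20.6 ± 5.23 CPM in CD103+CD11b- DCs (SD, n = 3 each; log2 -1.97 ± 0.53, adjusted p = 0.0286 from edgeR). This call held under 15 of 20 alternatives and was lost without any 1 of the 3 CD103+CD11b- libraries or without replicate 1 or 3 of the CD103-CD11b+ libraries.

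Receptors and effectors linked to Dlk1 and Dio3, namely genes of Notch signalling and of thyroid hormone handling, were listed together with Trp53 and Mdm2. They gave no call between genotypes by edgeR among 20 tested of 23 listed. In CD103+CD11b- DCs DESeq2 called 1 and 3 had an unadjusted p under 0.05 by edgeR, and in CD103-CD11b+ DCs these counts were 3 and 8, beside the same 3.18% and 10.5%, and 5.52% and 17.4%, of all genes tested. Their median log2 fold change was -0.44 in the former and -1.43 in the latter subset, against -0.02 and -0.06 over all genes tested. Between the subsets in WT, 7 of the 20 were called higher in CD103-CD11b+ DCs and 1 lower, where 11.8% of all genes tested were called higher and 18.8% in either direction. The calls of the 7 held under 13 of 19 to 19 of 20 alternatives, and that of the lower gene, Rbpj, under all 20. In Cbfb-cKO 2 were called higher and 1 lower, where 9.26% were called higher and 16.1% in either direction. Notch4, a receptor known from endothelium, stood at 64.5 ± 11.8 and 242 ± 121 CPM in WT CD103+CD11b- and CD103-CD11b+ DCs, and at 175 ± 37.4 and 108 ± 46.1 CPM in the Cbfb-cKO DCs (SD, n = 3 each). Its genotype effect in CD103-CD11b+ minus that in CD103+CD11b- DCs was -2.59 ± 0.56 on the log2 scale (SE, adjusted p = 0.0822 from edgeR), which missed the limit. For this difference of effects 0.651% of all genes tested were called, and 0.554% were called higher, on FDR alone. The ligand Dll4 went from 147 ± 78.8 to 47.9 ± 35.1 CPM and Klf9, a thyroid hormone target, from 69.3 ± 36.5 to 24.5 ± 15.3 CPM between WT and Cbfb-cKO CD103-CD11b+ DCs, and neither was called. Rbpj, the transcription factor of the pathway, stood at 202 ± 12.9 and 245 ± 76.4 CPM there. In the same libraries the summed level of 6 endothelial markers was 1237 to 3384 CPM in WT and 413 to 1486 CPM in Cbfb-cKO. It was 219 to 471 CPM in WT CD103+CD11b- DCs, and its part in the Notch values was not tested.

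**Figure D3:**
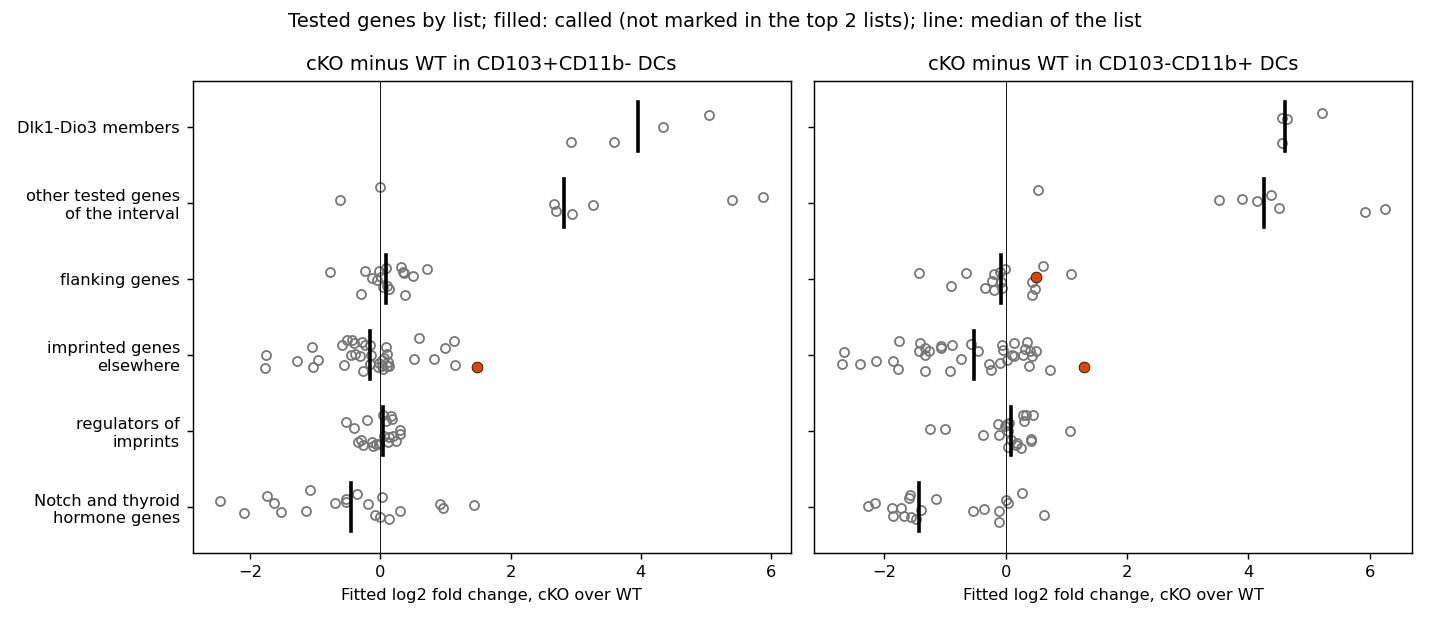
Fitted log2 fold change of Cbfb-cKO over WT (horizontal axis) for each tested gene of the 6 lists (vertical axis), in CD103+CD11b- DCs on the left and CD103-CD11b+ DCs on the right, with called genes filled, except among the members and other genes of the interval, and list medians as lines. Members, picked for standing high, and most other genes of the interval lie to the right. Most of these other genes passed the filter on low counts through Cbfb-cKO libraries alone, which favours that side. Flanking genes and regulators of imprints centre near 0.

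Markers of other cell types were read beside the locus because Meg3 is also known from stromal and endothelial cells. In CD103-CD11b+ DCs, the summed markers of fibroblasts and other stroma were 617, 1782 and 1556 CPM in WT and 675, 1889 and 108 CPM in Cbfb-cKO. The CD103+CD11b- libraries held 31.8, 26.8 and 620 CPM in WT and 119, 359 and 103 CPM in Cbfb-cKO. The genotypes overlapped in both subsets, with 0 to 3 of the 9 markers at 0 in a library. In each of the 4 groups the library with the most stromal markers also had the highest locus level, and it had the most endothelial markers as well. Between the other libraries of a group, the one with more stromal markers had the higher locus level in 2 groups and the lower in 2, WT CD103+CD11b- and Cbfb-cKO CD103-CD11b+ DCs, where 108 CPM of stromal markers went with a locus level of 168 CPM and 675 CPM with 81.5 CPM. The part of such cells in the differences of the locus, among libraries of a group and between groups, was not tested. The gate of the sort for CD45+CD11c+MHC-II+ cells would remove stromal and endothelial cells, and their markers were counted all the same.

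Endothelial markers ran from 219 to 471 CPM in WT and from 90.7 to 247 CPM in Cbfb-cKO CD103+CD11b- DCs, and from 1237 to 3384 CPM and from 413 to 1486 CPM in CD103-CD11b+ DCs. B and plasma cell markers overlapped as well, at 314 to 549 CPM in WT and 282 to 643 CPM in Cbfb-cKO CD103-CD11b+ DCs. The sum of the macrophage markers was higher with the locus in this subset, from 222 to 281 CPM in WT to 329 to 477 CPM in Cbfb-cKO, with none of the 5 markers at 0. The means of Adgre1 went from 51.9 to 197 CPM and of Cd68 from 116 to 166 CPM, while Fcgr1, which encodes the CD64 of the sort gate, went from 7.56 to 6.44, C1qa from 27.0 to 25 and Mertk from 44.0 to 26.7 CPM. Their part in the result was not tested. Macrophage markers overlapped in CD103+CD11b- DCs, at 149 to 168 CPM in WT and 145 to 180 CPM in Cbfb-cKO. Summed markers of enteric glia and neurons were 9.89 to 89.0 CPM in WT and 2.55 to 46.2 CPM in Cbfb-cKO CD103-CD11b+ DCs, with up to 5 of 6 at 0. T cell markers were 34.1 to 128 and 40.8 to 159 CPM there, those of innate lymphoid cells 318 to 379 and 364 to 455 CPM, and those of epithelium 105 to 127 and 40.6 to 73.0 CPM. In CD103+CD11b- DCs those of innate lymphoid cells were 424 to 512 CPM in WT and 336 to 397 CPM in Cbfb-cKO. The 4 markers of plasmacytoid DCs were 813 to 1836 CPM in WT and 372 to 703 CPM in Cbfb-cKO CD103+CD11b- DCs.

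Markers of the DC subsets themselves also differed between genotypes. In CD103+CD11b- DCs the summed level of 5 markers of CD103-CD11b+ DCs was 354 to 554 CPM in WT and 81.3 to 122.5 CPM in Cbfb-cKO, with at most 1 of the 5 at 0 in a library. Among them Sirpa, an inhibitory receptor, had means of 212 and 30.9 CPM and Irf4, a transcription factor of this subset, 179 and 52.5 CPM, whereas Itgam had 4.33 and 8.14 CPM. The 6 markers of CD103+CD11b- DCs summed to 2450 to 3457 CPM in WT and 3471 to 4048 CPM in Cbfb-cKO libraries of that subset, with none at 0. In CD103-CD11b+ DCs the 5 markers of their own subset were 752 to 848 CPM in WT and 927 to 1424 CPM in Cbfb-cKO, and the 6 of the other subset overlapped at 400 to 631 and 343 to 671 CPM. Their part in the locus levels was not tested.

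**Figure D4:**
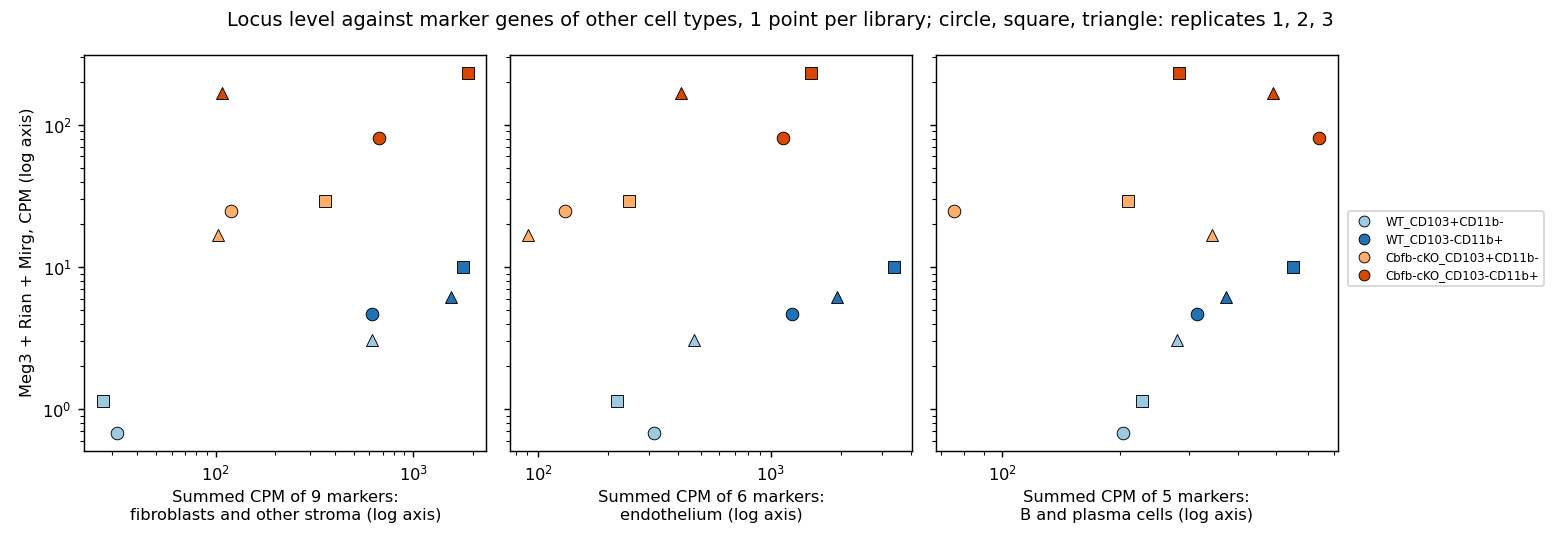
Summed CPM of Meg3, Rian and Mirg (vertical axis, log) against the summed CPM of marker genes of stroma, endothelium and B and plasma cells (horizontal axes, log), with 1 point per library. Every Cbfb-cKO library lies above all WT libraries, the lowest of them at 16.8 CPM, and within each group the library with the most stromal markers has the highest locus level.

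Among 17180 genes with a mean of at least 1 CPM, those most like Meg3 over the 12 libraries by Pearson's r of log2 CPM were Bank1 (0.968), Rian (0.955), Gm37899 (0.948), Lyl1 (0.948) and Trim30c (0.945). Mirg was 15th with 0.910 and Rtl1 18th with 0.897, and with a prior count of 0.5 in place of 2 they were 20th and 43rd, Bank1 was 2nd and Lyl1 7th. The libraries share groups, so these values mostly rank how well a gene follows the 4 group means, and no test was attached. Bank1 on chromosome 3 (136053363-136326066), a scaffold of B-cell receptor signalling, stood at 17.7 ± 4.49 and 26.9 ± 13.8 CPM in WT CD103+CD11b- and CD103-CD11b+ DCs, and at 79.2 ± 7.54 and 201 ± 22.6 CPM in the Cbfb-cKO DCs (SD, n = 3 each). Lyl1 on chromosome 8 (84701457-84704715), a transcription factor of blood progenitors, had 28.6 ± 2.09, 41.5 ± 2.40, 47.5 ± 2.18 and 95.9 ± 13.5 CPM in the same order. Trim30c, which belongs to a family of close copies whose reads may be shared, stayed at 2.41 CPM or less in group means. With Spearman's rho, Bank1 led with 0.979, Rian was 4th with 0.951, Lyl1 was 7th, Gm37899 8th, and Rtl1 and Mirg were 26th and 27th.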

How the data were processed

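RNA-seq libraries were made by a RamDA-seq protocol adapted to bulk input, which also primes RNA without poly(A) tails. By their processing notes and methods, the authors used CASAVA 1.8, trimmed with Trim Galore, mapped with STAR 2.7 to GRCm38, removed duplicates and poorly mapped reads, and deposited raw counts per Ensembl gene from htseq-count without strand. Symbols came from GENCODE M21 and matched 99.82% of 53801 IDs. The counter's summary lines stayed out. Of the reads, 59.7% to 66.1% fell on no feature, which by default means no annotated exon.

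Genes that reached 5 counts in some library were scaled by TMM and fitted in edgeR 4.0.16 (R 4.3.3) as 1 model of 4 groups, with quasi-likelihood tests and Benjamini-Hochberg adjustment, checked on simulated counts. Log2 CPM used a prior count of 2. Alternatives were other filters, RLE, DESeq2 1.42.0, a replicate block, fits to 2 groups and leaving out each library. Members, lists and markers were chosen with earlier results of these data known. Described were all members, the 10 interval genes with most counts, flanking genes and the 5 genes most like Meg3. Also described were up to 3 called genes per list, comparison and direction, Cbfb and the markers. In Cbfb-cKO, deviations of same-numbered libraries of the subsets from their group means correlated weakly (r from 0.112 to 0.353, against at most 0.0815 for other pairs). The labels state no pairing. Plots used matplotlib 3.10.9.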

Additional observations from a re-analysis of the deposited data

How the results depend on the processing

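All 144 fitted values of Meg3, Rian, Mirg and Rtl1 between genotypes stayed above 0 under the alternatives, a direction that the choice of these genes favours. Without 1 library, the log2 fold change in CD103+CD11b- DCs ran from 3.96 to 6.30 for Meg3 and from 2.74 to 3.47 for Rian, and in CD103-CD11b+ DCs from 4.09 to 5.21 and from 4.23 to 4.98. For Mirg it ran from 4.54 to 5.39 and from 3.95 to 5.56 in these subsets and for Rtl1 from 2.40 to 5.40 and from 4.68 to 5.82, where values against a WT group at 0 are no bounds. The locus level without Meg3 gave a log2 ratio of 3.19 in place of 3.85 in CD103+CD11b- DCs. Leaving out 1 library, an alternative chosen after seeing the data, gave 3.48 to 4.68 there, 4.17 to 4.90 in CD103-CD11b+ DCs, and 1.72 to 2.92 in WT and 2.41 to 3.10 in Cbfb-cKO between the subsets.

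Counts of genes called moved more. In CD103+CD11b- DCs the 210 genes became 320 with no filter beyond 1 count, 655 with DESeq2 and 522 with the replicate block, and 46 to 241 without 1 library. In CD103-CD11b+ DCs the 331 became 573 with 5 counts in every library, 1136 with DESeq2, 849 with the replicate block, 27 with only the samples of the 2 groups, and 121 to 517 without 1 library. The 134 genes of the difference between these effects became 205 with no filter beyond 1 count, 504 with DESeq2, 330 with the replicate block and 328 with the replicate block within genotype, and 29 to 210 without 1 library. The subset counts without 1 library were 1410 to 4373 in WT and 2124 to 3638 in Cbfb-cKO. The cause was not tested. Outside the subsets in Cbfb-cKO, same-numbered libraries did not all correlate (r from -0.0911 to 0.422), and not every library correlated best with its own number.

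Depth limits Dlk1, Dio3 and all miRNA genes, which had too few counts to test. Mirg and Rtl1 rest on 3 or fewer counts in each WT group, so their folds are bounds or ratios with wide counting intervals. The order of levels per kb depends on the gene model.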
